A study of Zea mays with 6 samples.

Results

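The levels of H3K9ac and H3K4me3, acetylation of lysine 9 and trimethylation of lysine 4 of histone H3, were set against the transcript level of the same genes in the base of the maize leaf. The genes compared were all features annotated as protein-coding in the transcript table, 39313 of 110149. A gene's transcript level was the mean of its RPKM (read count scaled to exon length and library size) in the 2 base libraries, A and B. Its mark level was the authors' average normalized read signal in the base, read from the region of highest base signal among those that the deposited tables place next to the gene. Genes with no region of either mark formed a class of their own. The choice of genes used no measured value, apart from taking the strongest region of each gene.

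The plants were of the maize inbred B73 and gave the third leaf, with no genetic change or treatment named in the labels, raised at 130 µmol photons m-2 s-1 with days of 16 h (25 °C) and nights of 8 h (20 °C) and sampled 13 to 14 days after sowing. The base was a piece of 1 to 2 cm at the bottom of the leaf, out of reach of light, from plants severed 0.5 cm above the soil. RNA was taken from 6 pooled plants for each replicate and chromatin from 10 pooled plants, so a value is an average over plants and over all cell types of the piece. Transcripts and marks come from separate preparations.

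A maize leaf grows from its base, where cells divide and elongate before they take on their mature functions further up. H3K9ac is placed by histone acetyltransferases and removed by histone deacetylases. H3K4me3 is placed by SET-domain methyltransferases. In plants both marks lie mainly over the first nucleosomes after the transcription start of genes in use, and chromatin immunoprecipitation with sequencing (ChIP-seq) reads them as regions where precipitated fragments pile up.

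Libraries A and B held 44243772 and 24205348 exon reads. Over both, a count of 0 allows up to 3 reads, a CPM (count scaled to library size) of 0.0438, which covers counting error only. The ranks of all protein-coding genes in A and B correlated with Spearman's rho = 0.941, and those of the genes at 1 RPKM or more in both with rho = 0.738. Of the latter 18317 genes, 43.6% differed more than 2-fold between the libraries, with a median log2 ratio of B over A of -0.24. The ChIP tables give 1 average per region and no value per replicate, so no spread stands beside a mark level. They list 43734 H3K9ac and 32908 H3K4me3 regions, of which 30830 and 25499 lie next to protein-coding genes. The same regions are listed for the base and the maturing blade, so a region can carry little signal in the base, and base signals ran from 1.1 to 2706 for H3K9ac and from 1.5 to 28807 for H3K4me3. Correlations below run across genes, which share libraries and are not independent replicates, so they carry no p.

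The tissue label was set against marker genes. Of all protein-coding genes 46.6% stood at 1 RPKM or more in both libraries. All 22 listed cell cycle and DNA replication genes did so, among them the replication clamp subunits pcna1 (72.9 RPKM in A and 55.9 in B) and pcna2 (94.3 and 74.3). The 5 listed C4 cycle genes, for carbon fixation in the mature leaf, were transcribed too. By the mean of A and B they ran from mdh6 (40.1 and 52.3 RPKM) down to the PEP carboxylase gene pep1 (4.04 and 3.72). The light-harvesting gene lhcb7, expressed in forming and mature chloroplasts, was at 781 and 2930 RPKM, so the piece held transcripts of these lists together. Homeobox genes of the meristem itself were low and uneven: kn1, which marks undetermined cells, had 169 reads in A and 2 in B, and lg3 had 138 and 9. Over all transcribed genes 57.6% were higher in A and 42.3% in B. Among the lists, 17 of 22 cell cycle genes and 20 of 20 transcribed histone-modifying enzymes were higher in A. Ribosomal protein genes, with 18 of 29 higher in A, lay near the share over all transcribed genes. In B, 10 of 11 photosystem and light-harvesting genes and 21 of 28 cell wall genes were higher. So were 14 of 20 transcribed genes of the mixed list of meristem, KNOX and growth-regulating factors. The KNOX genes of that list went the other way, with knox7 at 14.0 RPKM in A and 11.6 in B and knox6 at 11.7 and 9.49. Cellulose synthase genes were split, with cesa2 higher in A (148 and 74.8 RPKM) and cesa8 in B (88.0 and 118). In such bulk tissue, fewer cells of a type and less RNA per cell cannot be told apart, and whether the pieces of A and B held different parts of the base was not tested.

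Genes that carried both marks held most of the transcripts of the base. Of the 39313 genes, 21234 (54.0%) had a region of each mark, 2135 had H3K9ac alone, 1773 had H3K4me3 alone and 14171 had neither. The median RPKM of genes with both marks was 7.01 in A and 6.22 in B, with quartiles of 1.08 and 19.3 in A and 1.39 and 18.0 in B. It was 0.15 and 0.17 for genes with H3K9ac alone, 0.03 and 0.06 for those with H3K4me3 alone, and 0 in both libraries for genes without a region. Genes with both marks accounted for 89.9% of the protein-coding reads in A and 91.4% in B.

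Transcription, called here at 1 RPKM or more in both libraries, was found for 18317 genes, 46.6% of all. The share was 73.4% with both marks, 29.0% with H3K9ac alone, 16.3% with H3K4me3 alone and 12.9% with neither. Genes with both marks thus made up 85.1% of the transcribed genes. No read in either library was seen for 9202 genes, 23.4% of all, and this share was 4.38% with both marks, 23.7% and 20.9% with 1 mark and 52.2% with none. The share transcribed with H3K4me3 alone was 17.5% in A and 22.8% in B when each library was taken by itself, against 33.5% and 33.1% with H3K9ac alone, so the order of the 2 classes was the same in both.

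**Figure D1:**
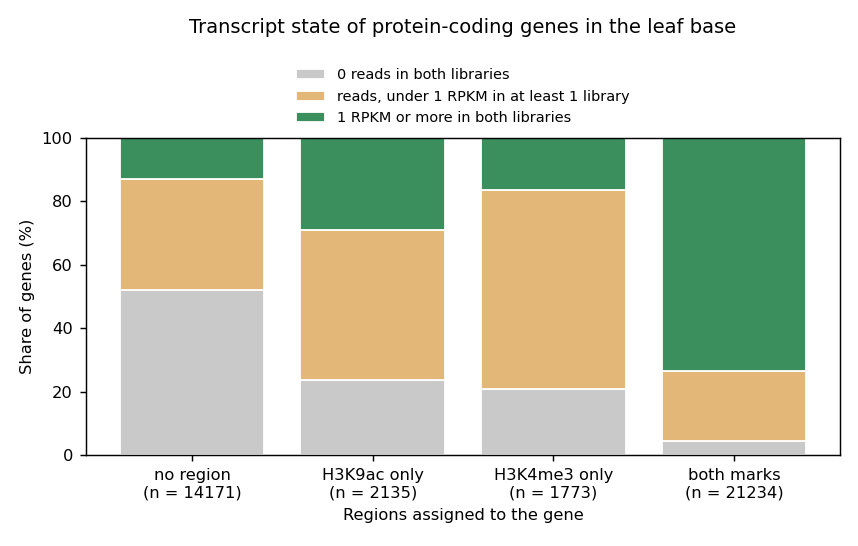
Share of protein-coding genes (%, vertical axis) without reads, with reads under 1 RPKM in at least 1 library, and at 1 RPKM or more in both base libraries, for genes without a region, with 1 mark and with both marks (horizontal axis). The transcribed share is 12.9% without a region and 73.4% with both marks, and the share without reads is 52.2% and 4.38%.

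Among genes that were transcribed, the classes lay closer together, in part by construction, since the cut at 1 RPKM leaves out the low values of each class. Their median was 12.0 RPKM with both marks, 8.37 with H3K9ac alone, 7.09 with H3K4me3 alone and 8.63 with no region. The libraries did not order the classes alike: transcribed genes without a region had a median of 10.4 RPKM in A and 5.34 in B, and those with H3K4me3 alone 5.29 in A and 8.13 in B. The median log2 ratio of B over A was -0.95 for the former and 0.76 for the latter, against -0.20 for genes with both marks. Mark signals were also lower where 1 mark stood alone. The median H3K9ac signal was 88.8 without H3K4me3 and 404 with it, and the median H3K4me3 signal was 61.3 without H3K9ac and 256 with it.

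Transcript levels were higher with each step of mark signal over the lower part of the range. Above it the libraries differed: medians levelled off or fell in A and reached higher values in B. Genes were put in 10 equal groups, or deciles, by H3K9ac signal. The median RPKM was 0.05 in A and 0.07 in B in the lowest decile, 1.24 and 1.76 in the third, 8.00 and 6.53 in the fifth, 11.9 and 9.07 in the seventh and 13.1 and 11.3 in the ninth. The share transcribed was 15.7% in the lowest decile and 80.6% in the fifth, and between 86.7% and 91.9% from the sixth decile on. The deciles of H3K4me3 had medians of 0.08 in A and 0.12 in B at the bottom, 1.98 and 2.11 in the third, 8.73 and 6.12 in the fifth and 11.4 and 9.68 in the seventh. Their transcribed share went from 18.2% in the lowest to 78.8% in the fifth and 89.4% in the highest. From the sixth to the highest decile of H3K9ac the median went from 8.30 to 13.0 RPKM in B, higher at each step. In A it went from 10.7 to 11.2. For H3K4me3 it went from 8.20 to 13.9 in B, with the eighth (9.30) below the seventh, and from 10.95 to 9.28 in A.

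The top of both ranges differed between the libraries. In the highest decile of H3K9ac the median was 11.2 RPKM in A, below the 13.1 of the ninth decile, and 13.0 in B, above the 11.3 of the ninth. In the highest decile of H3K4me3 it was 9.28 in A and 13.9 in B, against 11.2 and 11.6 in the ninth. Across transcribed genes with both marks, the log2 ratio of B over A correlated with H3K4me3 signal at rho = 0.217 and with H3K9ac signal at rho = -0.0235. Whether the highest signals go with a further step in transcript level therefore depends on the library, and the cause of that difference was not tested.

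**Figure D2:**
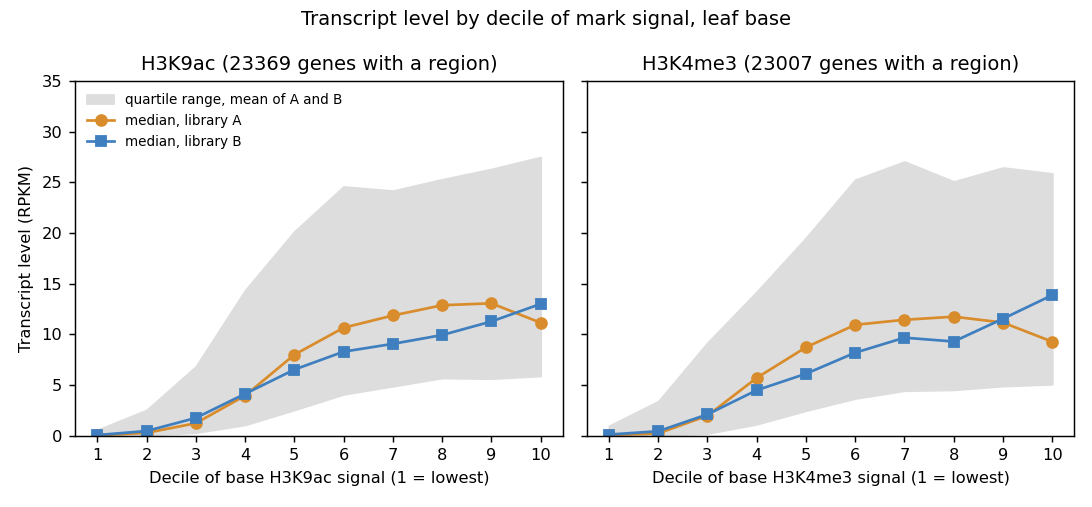
Median transcript level (RPKM, vertical axis) of libraries A and B in deciles of base H3K9ac signal (left) and H3K4me3 signal (right), with the quartile range of the mean of both libraries in grey. Medians run from 0.05 to 0.12 RPKM in the lowest decile and from 8.20 to 13.9 from the sixth on, and A and B part in the highest.

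Over all genes with an H3K9ac region, signal and RPKM correlated with rho = 0.516 (0.520 in A and 0.504 in B, n = 23369 genes). For H3K4me3 rho was 0.475 (0.448 and 0.494, n = 23007). On the log scale, with 0.1 RPKM added, Pearson's r was 0.568 and 0.515. The relation lay mostly in the lower deciles: rho was 0.525 for H3K9ac and 0.493 for H3K4me3 over the lower 5 deciles. Over the upper 4 deciles it was 0.0488 and 0.0196, with H3K9ac at -0.00987 in A and 0.0931 in B and H3K4me3 at -0.0609 in A and 0.0903 in B. Within transcribed genes that carried both marks rho was 0.176 for H3K9ac and 0.166 for H3K4me3 (n = 15579). Within the single-mark classes it was 0.262 for H3K9ac alone and 0.246 for H3K4me3 alone.

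Read from the transcript side, the share of marked genes was higher in each higher class of transcript level, while the signal stopped at a plateau. Both marks were present at 10.1% of genes with 0 reads, 22.2% of those with reads under 0.1 RPKM, 52.8% from 0.1 to 1 RPKM, 78.7% from 1 to 10, 87.8% from 10 to 100 and 91.2% at 100 RPKM or more. The share without a region went from 80.4% to 5.53%, and 50 of the 904 genes at 100 RPKM or more had none. Median H3K9ac signal was 119 at genes with 0 reads and 85.6, 155, 392 and 487 in the next 4 classes, and then 417 at 100 RPKM or more. Median H3K4me3 signal was 82.7, 64.8, 117, 249, 321 and 333 in the same order. Genes with 0 reads that had a region thus carried a higher median signal of both marks than those with reads under 0.1 RPKM.

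**Figure D3:**
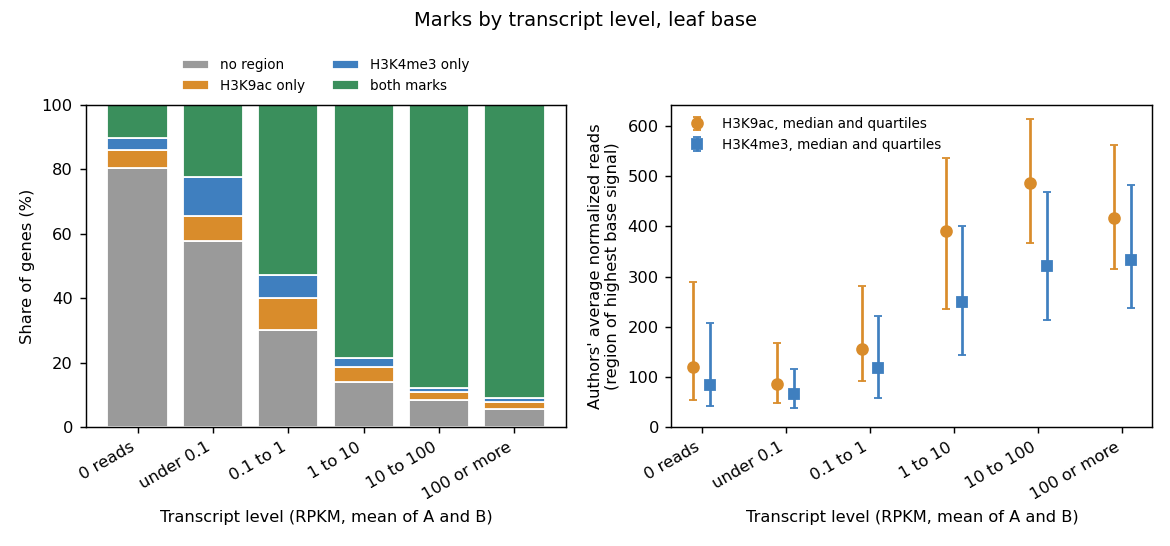
Share of genes in each mark class (%, left) and median signal of the region of highest base signal with quartiles (authors' average normalized reads, right), by class of transcript level (RPKM, mean of A and B). The share with both marks goes from 10.1% to 91.2%, and median H3K9ac signal peaks at 487 between 10 and 100 RPKM.

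In the 21234 genes with both marks the 2 signals correlated with each other at rho = 0.60. H3K9ac signal and RPKM correlated there with rho = 0.469 (0.476 in A and 0.452 in B), and with H3K4me3 held fixed the partial rho was 0.305 (0.338 and 0.263). H3K4me3 had rho = 0.411 (0.375 and 0.438), and 0.184 (0.127 and 0.233) with H3K9ac held fixed. In each library the partial value of H3K9ac was above that of H3K4me3, by a wide margin in A and a narrow one in B. The ratio of the 2 signals had rho = 0.00758 with RPKM, 0.0614 in A and -0.0442 in B.

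The 4 quartile groups of each signal, taken over genes with both marks, were crossed, and the median level was higher along both except among the highest groups. Genes in the lowest quartile group of both had a median of 0.19 RPKM in A and 0.34 in B and were transcribed in 25.8% of 3533 cases. With H3K9ac in its lowest and H3K4me3 in its highest group the medians were 3.64 and 3.94 and the share 68.2%, over only 154 genes. With H3K9ac in its highest and H3K4me3 in its lowest group they were 10.7 and 5.88 and 82.8%, over 285 genes. In the highest quartile group of both the medians were 10.8 and 14.3 and the share 91.1% of 2501 genes. The highest median of the mean level, 13.6 RPKM, was at the top of H3K9ac and in the third group of H3K4me3.

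**Figure D4:**
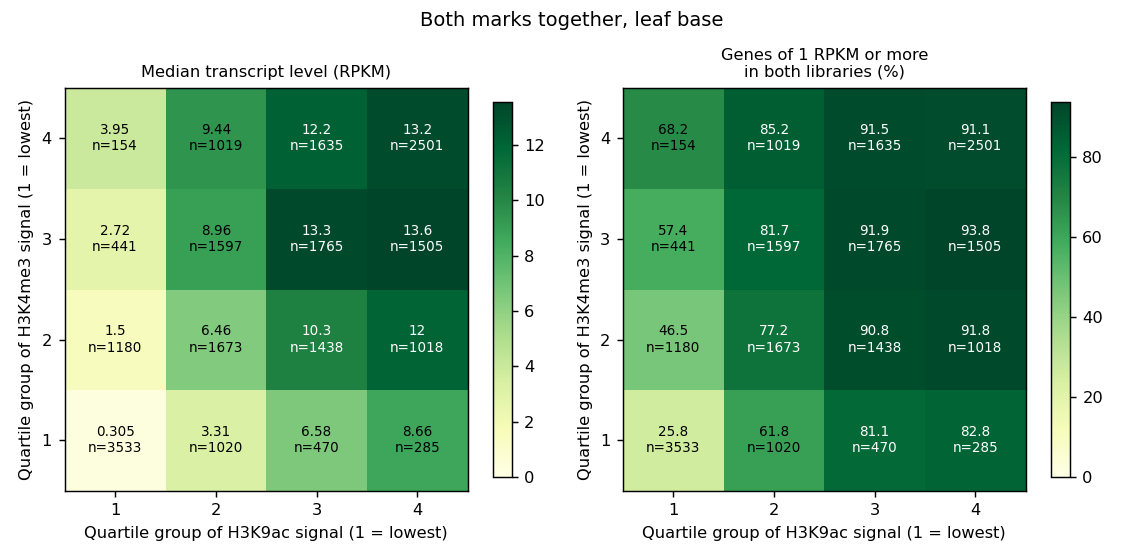
Median transcript level (RPKM, mean of A and B, left) and share of genes at 1 RPKM or more in both libraries (%, right) in quartile groups of base H3K9ac signal (horizontal) and H3K4me3 signal (vertical), for genes with both marks. The median is 0.305 RPKM in the lowest quartile group of both marks and 13.2 in the highest quartile group of both.

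The strongest regions of the 2 marks mostly lay on the same stretch of DNA. In 20420 of the 21234 genes (96.2%) they shared at least 1 base, with midpoints a median of 44.5 bp apart. These genes had a median of 7.24 RPKM in A and 6.37 in B, and 74.3% were transcribed. In the other 814 genes the regions were apart, the medians were 1.47 and 2.00 RPKM and 50.4% were transcribed, with lower signals as well (198 against 410 for H3K9ac and 122 against 261 for H3K4me3). The tables place a region next to a gene without giving a distance. In 116 genes the midpoints were over 10 kb apart, so at least 1 of the 2 regions does not lie at the start of the gene.

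Region length and number were weaker companions of the transcript level. H3K9ac regions had a median length of 660 bp over all genes with one and H3K4me3 regions 812 bp. In genes with both marks the length of the H3K9ac region correlated with RPKM at rho = 0.145 (0.0916 in A and 0.186 in B) and that of the H3K4me3 region at rho = -0.0677 (-0.131 and -0.00977). The narrowest decile of H3K9ac regions, up to 596 bp, stood apart with 0.94 RPKM in A and 1.24 in B and a median signal of 216, while the other deciles had mean-level medians of 5.84 to 9.61 RPKM. The widest decile of H3K4me3 regions, from 1171 bp, had 3.73 RPKM in A and 6.61 in B at a median signal of 384. Most genes had a single region, 76.0% of those with H3K9ac and 90.4% of those with H3K4me3. With 1, 2, 3 and 4 or more H3K9ac regions the transcribed share was 67.8%, 72.8%, 76.4% and 85.7%. The median signal of the strongest region was 373, 382, 411 and 452 in the same order, and the last group held 342 genes. Number and signal were not separated here.

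The genes with the most abundant transcripts ranged widely in mark signal: of the 10 highest by RPKM with both marks, 4 lay in the highest decile of H3K9ac signal and 1 in that of H3K4me3, and 3 and 4 lay below the median. The sucrose synthase gene sus1 (GRMZM2G152908), whose product splits sucrose in sink tissue, led with 3481 RPKM in A and 4944 in B. Its strongest regions lay on chromosome 9 of the RefGen_v3 build, H3K9ac from 122484145 to 122484833 with a signal of 689 and H3K4me3 from 122483752 to 122484844 with 331. These signals exceeded those of 90.2% and 66.3% of the genes with a region. GRMZM2G050730, which has no name in the reference, was next with 1862 and 4735 RPKM and signals of 873 and 415. The alpha-tubulin gene tua4 followed with 1348 and 2458 RPKM and signals of 742 and 211, and the lipid transfer protein gene LTP3 with 1165 and 2590 RPKM and signals of only 194 and 179. The light-harvesting gene lhcb7 (GRMZM2G402936) had signals of 399 and 297 at 781 and 2930 RPKM. The aquaporin gene PIP1-1 (894 and 1782 RPKM) had high signals of both marks, 912 and 783, and the glutathione S-transferase gene gst1 (766 and 1398 RPKM) had 668 and 389. The others of the 10 highest, AC195340.3_FG001, EF517601.1_FG016 and GRMZM2G162276, also carry no name and had H3K9ac signals of 482, 195 and 276. All 10 were higher in B than in A, as were 64.7% of the 904 genes at 100 RPKM or more.

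The highest transcript levels without a region of either mark included 2 genes of benzoxazinoid synthesis, the pathway of the defence compounds of young maize. The cytochrome P450 genes BX5 (GRMZM2G063756) and BX3 (GRMZM2G167549) stood at 342 and 846 RPKM and at 207 and 458 RPKM in A and B. The others were GRMZM2G139786, GRMZM2G402417, GRMZM2G166944, GRMZM5G898755, GRMZM2G096247, GRMZM2G013457, GRMZM2G097884 and GRMZM2G163406, with 226 to 554 RPKM in A and 292 to 895 in B. No region means that the tables place none next to the gene, and a region at its start could have been placed next to a neighbour, which was not tested. Among genes with H3K9ac alone the beta-glucosidase gene glu1, whose enzyme releases benzoxazinoids from their glucosides, was highest with 1034 RPKM in A and 261 in B at a signal of 181. GRMZM2G439201, GRMZM2G044800, GRMZM2G112530 and GRMZM2G105644 followed with signals of 255 to 562. Among genes with H3K4me3 alone the glycine-rich protein gene grp1 had 135 and 416 RPKM at a signal of 750. GRMZM2G037255, the glutathione S-transferase gene gst11, GRMZM2G178005 and GRMZM2G463913 had 104 to 149 RPKM in A, 242 to 371 in B and signals of 87.5 to 427.

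The 5 genes with the highest H3K9ac signal were all transcribed, at levels above those of 52.2% to 98.9% of protein-coding genes. In the highest decile of H3K9ac 90.5% were transcribed, and 46.6% over all protein-coding genes, so this count lies near the share of that decile. GRMZM2G081406 had the highest H3K9ac signal, 2706, with H3K4me3 at 2539 and 11.1 RPKM in A and 33.6 in B. D8 (GRMZM2G144744), the DELLA protein that restrains gibberellin response, had 2180 and 1962 over regions on chromosome 1 from 266160955 to 266162558 and from 266160494 to 266162699, with 50.6 and 153 RPKM. GRMZM2G004183 (2227) and GRMZM2G077755 (2100) had 113 and 241 RPKM and 45.3 and 53.6 RPKM. GRMZM2G351716, with a signal of 2250 and 2.00 and 1.09 RPKM, was a case of its own: 77 H3K9ac and 55 H3K4me3 regions were placed next to it, and its strongest regions lay 634 kb apart.

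The 5 genes with the highest H3K4me3 signal fell into 3 with no transcripts or nearly none and 2 that were transcribed. GRMZM2G348602 had a signal of 28807 over chromosome 4 from 158844863 to 158845579, no H3K9ac region and 0 reads in both libraries. GRMZM2G333777 had 4132, also without H3K9ac or reads. GRMZM2G083350 had 9296 at 0.01 RPKM in A and 0 in B, and its H3K9ac region, of signal 35.1, lay 5.54 kb away. GRMZM2G087206 (12690) was at 65.0 and 30.4 RPKM with an H3K9ac region 5.39 kb away, and GRMZM2G100881 (5331) was at 17.2 and 11.5 RPKM. Of the 6 genes with H3K4me3 above 3000, 3 were not transcribed, a count too small for a share. Over all protein-coding genes 46.6% were transcribed, and 89.4% in the highest decile of H3K4me3. Whether these outlying signals measure the mark was not tested.

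Strong marks without transcripts were found at a small share of genes. Of 2780 genes in the highest quartile of both signals, with quartiles here taken over all genes that have a region of the mark, 244 (8.78%) were not transcribed and 81 had 0 reads in both libraries. Of 2790 genes in the lowest group of both, 78.5% were not transcribed. Regions are placed next to a gene without a distance, so a strong region could belong to a neighbour, which was not tested. Among genes without reads GRMZM2G359521 had the highest H3K9ac signal, 1395, with H3K4me3 at 1702, over chromosome 2 from 181475949 to 181476859 and from 181475872 to 181476960. Its H3K9ac signal exceeded that of 99.8% of genes with a region. GRMZM5G842686, GRMZM6G025093, GRMZM2G358416 and GRMZM2G338205 followed with H3K9ac signals of 1097 to 1387. AC196090.3_FG006 and GRMZM2G430039 had H3K4me3 signals of 1847 and 1631 without a read.

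Groups of genes with a common role differed in their marks and transcripts. The lists hold 222 genes named in the reference, and a member's count is to be read against 54.0% with both marks and 46.6% transcribed over all protein-coding genes. Ribosomal protein genes, which supply the translation machinery of growing cells, had both marks in 28 of 30 cases and were transcribed in 29, with a median of 167 RPKM in A and 143 in B. Their median signals, 343 for H3K9ac and 284 for H3K4me3, were in the middle of the range. The small subunit gene rps4 (GRMZM2G125271) at 510 and 478 RPKM and the P-protein gene rpp3 at 389 and 517 were highest. The P-protein gene rpp2a-3 had no region at 120 and 116 RPKM, and RPS21 had H3K9ac alone at 202 and 241. The ubiquitin-fusion gene RPS27A (GRMZM2G047732) had signals of 467 and 669 at 0.02 and 0 RPKM, while its namesake GRMZM2G431821 stood at 285 and 363 RPKM with 534 and 334. In rps6-2 (388 and 326 RPKM) the H3K9ac region, 2.52 kb from that of H3K4me3, had a signal of 18.5 against 581 for H3K4me3. Copies of these genes are alike in sequence, and the authors' counting could have split or shared their reads.

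Of 22 cell cycle and DNA replication genes, 18 had both marks. The D-type cyclin gene cycD2, for entry into the cycle, was highest with 119 RPKM in A and 90.0 in B and signals of 619 and 470, followed by pcna2 with signals of 105 and 277. The cyclin gene cyclin11 was lowest at 3.02 and 3.96 RPKM with 225 and 558. H3K9ac signals of this list were low: 5 of 18 were above the median of all genes with a region, against 15 of 20 for H3K4me3. The replication helicase subunits MCM7 (35.7 and 17.6 RPKM) and MCM6 (34.1 and 11.1) had H3K4me3 alone, with signals of 321 on chromosome 1 from 147093810 to 147094903 and 180 on chromosome 8 from 110048209 to 110048954. The origin recognition subunit orc4 (16.5 and 4.74 RPKM) and the ribonucleotide reductase subunit RNRS1 (5.86 and 5.03) had no region.

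Of 5 core histone genes 3 had both marks: histone2b1 (259 and 357 RPKM), his2b5 (217 and 324) and his2a1 (66.2 and 96.5). Their H3K9ac signals, 358, 112 and 161, were below the median of all genes, and their H3K4me3 signals of 285 to 291 above it. The histone H3 gene H3C2 had 49.7 and 39.4 RPKM with no region, and his2b2 0.34 and 0.16. Of 22 genes for histone-modifying enzymes 20 had both marks, 20 were transcribed, and their median signals were 491 and 364. The plant-specific deacetylases hdt103 (212 and 78.2 RPKM) and hdt102 (217 and 64.4) were highest. The deacetylase gene hda102 was transcribed without a region (22.9 and 5.08 RPKM). The Polycomb gene fie1, lowest of the list, had 2 reads in each library and no region.

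Of 37 genes of meristems and leaf primordia 22 had both marks and 20 (54.1%) were transcribed. The highest were the growth-regulating factor gene GRF1 (GRMZM2G178261) at 25.4 and 25.9 RPKM with signals of 817 and 541, and rs2, a repressor of KNOX genes in leaf primordia, at 12.5 and 37.6 RPKM with 480 and 334. The KNOX genes knox6 (11.7 and 9.49 RPKM) and knox7 (14.0 and 11.6) had both marks. Their relatives kn1, lg3 and knox8 had none, with 2.23, 1.92 and 0.43 RPKM in A and 0.05, 0.23 and 0.27 in B. Gene knox3 had H3K9ac alone, and lg4 and knox4 had H3K4me3 alone, none above 1.09 RPKM in either library. Among WOX genes ns1, wox3A, wox4, wox9B, wox5B, wox2A and wox9A had no region and at most 1.13 RPKM in either library, wox9A being the lowest, and wox9C had H3K4me3 alone at 0.80 and 2.36 RPKM. GRF7 was the growth-regulating factor with H3K4me3 alone, at 0.60 and 0.19 RPKM and a signal of 301.

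Of 37 cell wall genes 25 had both marks, and 28 were transcribed. The phenylalanine ammonia-lyase gene PAL1, at the entry to lignin synthesis, had 158 RPKM in A and 613 in B with signals of 862 and 699. The cellulose synthase gene cesa6 had 181 and 170 RPKM and an H3K9ac signal of 1575 on chromosome 1 from 296334171 to 296335295, higher than in all other listed genes. The lignin methyltransferase ccoaomt1 (27.1 and 97.1 RPKM, signal 870) and the expansin gene expB6 (1.46 and 15.8 RPKM, signal 31.1) had H3K4me3 alone. CesA12 and expB5 had H3K9ac alone, with signals of 54.8 and 108. The 8 members without a region, ccr2, expB7, CesA13, EXPB9, expA3, EXPB11, EXPB10 and EXPB1, were all under 1 RPKM in both libraries, and the last 3 had no reads. The wall enzyme xet1 had both marks at 0.13 and 0.02 RPKM, with signals of only 30.6 and 5.33.

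**Figure D5:**
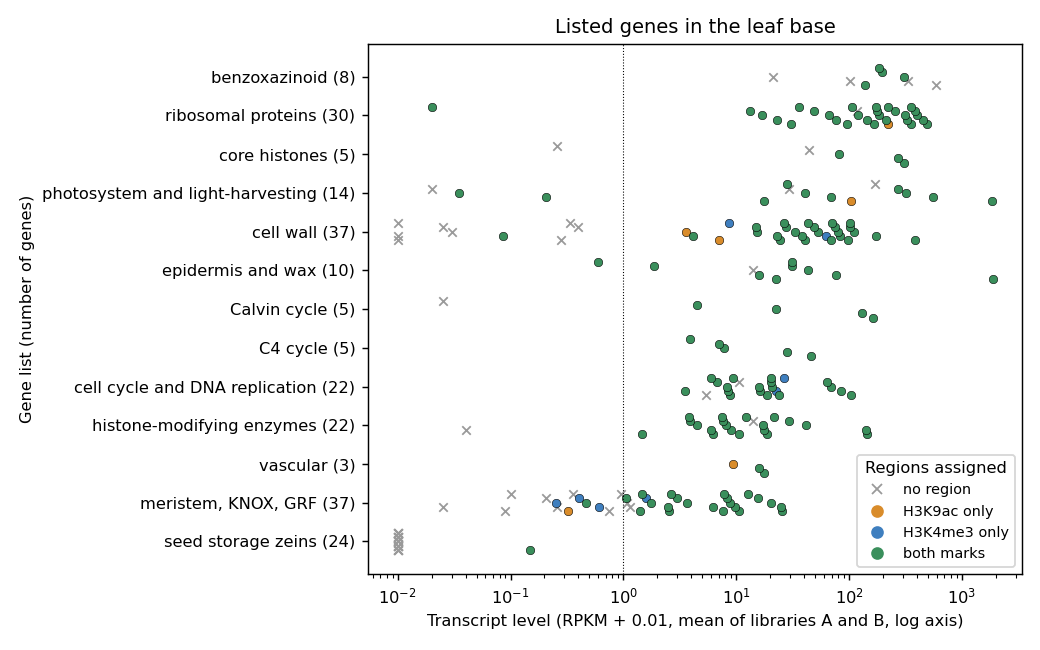
Transcript level of each listed gene (RPKM + 0.01, mean of libraries A and B, log axis) by gene list (vertical axis), with the symbol giving the regions assigned to it. The dotted line is 1 RPKM. Genes without a region stand mostly at the left, among them 23 of 24 zein genes, and 4 of 8 benzoxazinoid genes without one stand at 21.1 RPKM or more.

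Most listed genes of photosynthesis had regions of both marks. Regions are shared with the maturing blade, so such a count does not show a strong signal in the unlit piece. Of 14 photosystem and light-harvesting genes 10 had both marks and 11 were transcribed, led by lhcb7 and by lhcb3 with 211 RPKM in A and 910 in B and signals of 190 and 329. The antenna gene lhcb6 (64.2 and 277 RPKM) and the photosystem I gene psah1 (14.1 and 44.5) had no region, and psb29 (83.6 and 125) had H3K9ac alone at 717. PSBQ1 was lowest, with 2 reads in A and 0 in B and no region. Of the chlorophyll a/b-binding genes, cab-m1 had both marks (206 and 422) at 0.16 and 0.23 RPKM. The gene cab48, also counted with both marks, had signals of 11.9 and 72.4 at 0.05 and 0 RPKM. Of 5 Calvin cycle genes 4 had both marks, with the Rubisco small subunit genes rbcs1 (83.5 and 245 RPKM) and rbcS (55.6 and 204) highest and the Rubisco activase gene rca3, with no region and 1 read in all, lowest.

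All 5 listed C4 cycle genes had both marks and were transcribed, with unlike signals. Malate dehydrogenase mdh6 stood at 40.1 and 52.3 RPKM with 230 and 343. Pyruvate phosphate dikinase pdk1 stood at 29.6 and 26.6 RPKM with 161 and 103. The PEP carboxylase gene pep1 had the weakest marks of the 5, 22.5 for H3K9ac on chromosome 9 from 62306347 to 62306926 and 55.8 for H3K4me3 from 62305883 to 62307051. PPCK1, the kinase that activates PEP carboxylase, had the strongest, 493 and 842, at 3.98 and 10.1 RPKM. Between pep1 and PPCK1 the levels were 4.04 and 3.98 RPKM in A and 3.72 and 10.1 in B, so the gene with the stronger marks was higher in B and not in A.

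Markers of other tissues and cell types of the piece were read in the same way. Of 10 epidermis and wax genes 9 had both marks and 8 were transcribed. LTP3 led, and ocl1, a homeobox gene of the outer cell layer, followed with 48.7 and 104 RPKM and signals of 993 and 585. The wax gene gl1 was lowest at 0.30 and 0.87 RPKM with 41.9 and 37.7, and gl8b had no region at 13.2 and 14.8 RPKM. The sucrose transporter genes sut2 (21.4 and 13.9 RPKM) and sut4 (16.1 in both) had both marks, and sut1, for phloem loading, had H3K9ac alone at 4.99 and 13.7 RPKM with a signal of 37.9. Zein genes, which encode seed storage proteins, gave the opposite end of the scale: 23 of 24 had no region, and the highest of all was at 0.26 RPKM. The zein gene zp15, with 1 and 6 reads, had both marks at 139 and 67.1.

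The benzoxazinoid genes were listed after BX5 and BX3 had been seen among the highest genes without a region. All 8 were transcribed, and 4 had both marks. With marks, bx6 stood at 192 and 426 RPKM, bx2 at 120 and 272, bx9 at 104 and 262 and bx1 at 79.0 and 201. Without any region, BX5 and BX3 were higher, bx8 stood at 33.8 and 169 and BX4 at 25.4 and 16.8 RPKM. Transcript levels of marked and unmarked genes of the pathway overlapped in both libraries. The glucosyltransferase genes bx9 and bx8, which act at the same step, were on both sides: bx9 carried an H3K9ac signal of 1415 and bx8 no region.

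Other annotation classes served as a scale for the marks alone. Of 40569 low-confidence gene models 10.9% had both marks, and of these 4420 models 16.9% were transcribed, against 1.81% of those without a region. Of 29953 transposable element models 4.90% had both marks, and of these 1469 models 14.3% were transcribed, against 0.301% without a region. In each annotation class models with both marks were transcribed more often than those with 1 mark or none, and the share in these 2 classes was below the 73.4% of protein-coding genes.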

How the data were processed

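Per the file headers, the deposited RNA table gives whole-number exon read counts and RPKM for each base library, both made by the authors. For each region, the deposited ChIP tables give a base signal, the authors' average of normalized reads. Not given in the sources used here are its scaling, the number and depth of its replicates, the aligner and the peak caller. Tools named in the submitters' processing notes are edgeR, DiffBind 1.10.0, Trimmomatic 0.32 and CASAVA 1.8.2, and the build is B73 RefGen_v3.

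Computed here, with Python 3.11.15, numpy 2.4.6, pandas 2.3.3 and scipy 1.17.1, were the strongest base region per gene, mark classes, Spearman and partial Spearman correlations, and groups of equal size. The code was tested on simulated data. No significance test was run, because marks have no replicate values. Signals were used as deposited, without dividing by region length. RPKM divides by exon length, so levels of different genes can be compared.

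Gene names came from RefSeq's NAM-5.0 table, in which 18818 gene models (47.9%) were found. Lists hold only named genes, so some known enzymes (PEP carboxykinase, carbonic anhydrase) are missing, and 16 loci that share a reference entry were left out. Named genes were the 10 highest by RPKM with both marks and without a region, the 5 highest in each single-mark class, by each signal, and by each signal among genes without reads. From each list the 2 highest, the lowest and all without both marks were named, zeins summarised. Genes and lists were chosen with earlier results of these data known. Promoter sequences were not used here. 1 listed gene is not reported here.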

Additional observations from a re-analysis of the deposited data

How the results depend on the processing

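No correlation over all or both-mark genes changed sign under the alternatives below. Class medians, transcribed shares and decile medians cannot be negative, so the sign says nothing about them. Between A and B, the correlation of the signal ratio changed sign (0.0614 and -0.0442). So did those over the upper 4 deciles (-0.00987 and 0.0931 for H3K9ac, -0.0609 and 0.0903 for H3K4me3). Of the recomputed values, 38 moved by more than the spread (SD) of A and B under other settings and 20 did not. With 1 library left out, 15 moved, transcribed shares by a looser rule among them, and 21 did not. No paired analysis was possible because no groups were contrasted and marks have 1 value per region. Restricting regions to those within 2 kb of a gene was not run, as the tables give no distance. Summing the signal over all regions of a gene, run for the Spearman correlations (classes cannot change), moved none of the 6 by more than the spread (SD) of A and B. Without the regions in the lowest quartile of signal, median RPKM was 0.01 without a region, 1.16 and 0.287 with H3K9ac or H3K4me3 alone and 9.56 with both marks, and transcribed shares were 44.3%, 28.3% and 83.6% in the last 3 classes; rho fell to 0.371 for H3K9ac and 0.245 for H3K4me3, and among genes with both marks to 0.272 and 0.189, or 0.219 and 0.0922 with the other mark held fixed, a narrower range of signal by construction. With genes of 1 read or more only, the class medians were 0.13, 0.69, 0.11 and 7.82 RPKM. Transcribed shares without a region, with H3K9ac, H3K4me3 and both were 21.6%, 49.5%, 33.5% and 87.4% at 0.1 RPKM, 5.87%, 13.7%, 6.82% and 48.3% at 5 RPKM, and 17.7%, 41.5%, 28.3% and 84.2% at 10 reads in both libraries. Genes of 1 RPKM or more gave rho of 0.184 and 0.171 for the 2 marks. For H3K9ac rho was 0.502 with signal per kb and 0.534 with CPM, and Pearson's r was 0.516 (H3K4me3 0.474) with a pseudocount of 1. With 20 groups the lowest had medians of 0.035 (H3K9ac) and 0.075 (H3K4me3), and the highest of H3K9ac 14.5 RPKM.

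Leaving out 1 library gave medians of 0 without a region, 0.15 to 0.17 with H3K9ac, 0.03 to 0.06 with H3K4me3 and 6.22 to 7.01 with both. Transcribed shares were 14.3% to 15.3%, 33.1% to 33.5%, 17.5% to 22.8% and 75.7% to 78.0%. They were called at 1 RPKM or more in the remaining library only, so by construction they cannot lie below the shares called in both. The rho was 0.504 to 0.520 for H3K9ac and 0.448 to 0.494 for H3K4me3, 0.452 to 0.476 and 0.375 to 0.438 among genes with both marks, and 0.263 to 0.338 and 0.127 to 0.233 with the other mark held fixed. Lowest deciles had 0.05 to 0.07 (H3K9ac) and 0.08 to 0.12 (H3K4me3), highest deciles 11.2 to 13.0 and 9.28 to 13.9 RPKM.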
